A study of Drosophila melanogaster with 4 samples.

Results

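Regions enriched for RNA polymerase II were described here on chromosome 4 and on the sequences of the Drosophila melanogaster assembly that hold heterochromatin or could not be placed on a chromosome. They were taken from the deposited list for the whole series by the name of the sequence alone, and numbered 263 of 5517. Regions named as depleted were left out of the count, and none lay on these sequences. Of these, 84 lay on chromosome 4, 100 on the 6 sequences whose names end in Het (2LHet, 2RHet, 3LHet, 3RHet, XHet and YHet) and 79 on U. The list of ChIP replicate 1 held 186 regions on the same sequences, of 5141 in all, and that of ChIP replicate 2 held 182 of 5063.

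Chromatin immunoprecipitation with sequencing (ChIP-seq) had been done on CME-W1-Cl.8+ cells, known as Clone 8, a male line whose labels give the dorsal mesothoracic disc as its tissue and the third larval instar as its stage. That disc forms the wing. The antibody, ab5408, is a mouse monoclonal against the YSPTSPS repeat of the polymerase's carboxy-terminal domain. The 4 samples were 2 ChIP libraries and 2 input DNA libraries from untreated cells of this line. Region lists of the ChIP libraries and of the series were used, and the inputs were not analysed here. Separate cultures are not stated for the ChIP replicates, and a standard deviation (SD, n = 2) may cover technical spread alone. Without read counts in the lists, sequencing depth is unknown.

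Heterochromatin is the compact, repeat-rich chromatin around centromeres and along the Y chromosome, and it is marked by methylated histone H3 and the protein HP1a. Most of it is poor in genes, yet some essential genes lie there, among them light and rolled, and are transcribed from within it. Chromosome 4, the dot chromosome, carries HP1a along most of its length, but its distal arm holds many active genes, such as cubitus interruptus, the transcription factor of Hedgehog signalling. The Y chromosome is known for genes needed for male fertility. The Het sequences and U of the assembly were built by joining scaffolds, so distances along them need not be distances along a chromosome. Chromatin marks were not measured in this series, and the names of the sequences are the sole evidence here that a region lies in heterochromatin.

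Each region has a score given by the authors, read as a log2 ratio, in which 1 unit is a 2-fold step. Positions refer to FlyBase release 5. No gene annotation or genome of that release was used here, so no gene is assigned to a region and no sequence is shown. Chromosome 4 was compared with the scaffolds within each list, and both with the main arms (2L, 2R, 3L, 3R and X together). These comparisons are described with both replicate values and carry no test, since regions of 1 library are not replicates and the smallest 2-sided p that 2 libraries can give is 0.5.

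Per length of assembled sequence, chromosome 4 was dense in polymerase regions and the scaffolds were sparse. The full stated lengths were used, with no allowance for repeats or assembly gaps where reads may not align. How much of each sequence is affected is not known here. Regions covered 26.4% of chromosome 4 in replicate 1 and 21.9% in replicate 2, against 1.82% and 1.54% of the Het and U scaffolds. The mean was 24.1% ± 3.18 on chromosome 4 and 1.68% ± 0.195 on the scaffolds (SD, n = 2), a ratio of 14.5 in replicate 1 and 14.2 in replicate 2. On the main arms the covered share was 16.0% in replicate 1 and 15.7% in replicate 2, so that chromosome 4 lay above these arms and the scaffolds below them in each list. In number, chromosome 4 had 59.2 and 53.3 regions per Mb, the scaffolds 5.48 and 5.69 and the main arms 41.6 and 41.0, in replicates 1 and 2. The list for the series gave higher figures throughout, with 62.1 regions per Mb and 29.6% covered on chromosome 4, 9.26 per Mb and 2.58% on the scaffolds, and 44.1 per Mb and 18.3% on the main arms. Relative to the replicates it added most on the scaffolds, where it held 179 regions against 106 in replicate 1 and 110 in replicate 2.

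**Figure D1:**
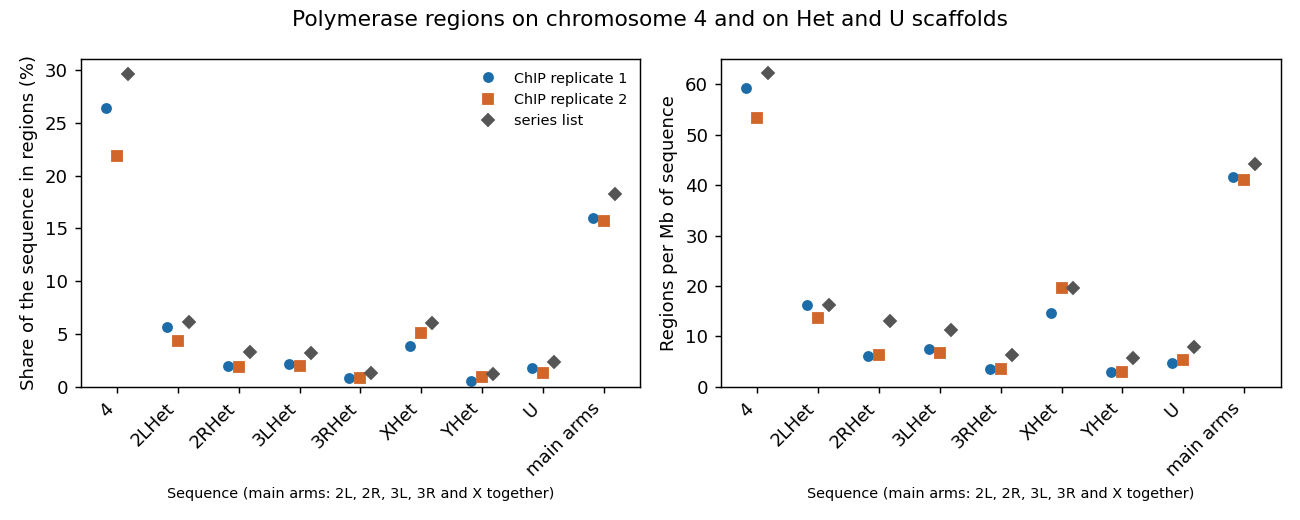
Share of each sequence inside polymerase regions (left, percent) and regions per Mb of sequence (right) in ChIP replicate 1, ChIP replicate 2 and the series list, 1 point a list. Chromosome 4 lies at 21.9% to 29.6% covered, all Het and U sequences at 6.18% or less, and the main arms at 15.7% to 18.3%.

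The scaffolds differed among themselves. The highest shares were on the short sequences XHet (204112 bp), with 3.87% and 5.10% covered in replicates 1 and 2, and 2LHet (368872 bp), with 5.64% and 4.32%. On XHet, all 4 regions of the series list lay between 59938 and 80340, and the last 123772 bp had none in any list. On 2LHet, 3 of the 6 regions lay between 20238 and 37392, the others were 28197 bp or more apart, and the last 168549 bp were empty in all lists. The 3 long sequences were 2RHet, 3LHet and 3RHet. Coverage on 2RHet was 1.99% and 1.91% in replicates 1 and 2, on 3LHet 2.17% and 1.97%, and on 3RHet 0.88% and 0.84%. Of these, 3RHet was the lowest in each list. Unplaced sequence, U (10049037 bp), was covered to 1.76% and 1.33%. YHet, sequence of the Y chromosome, had 1 region in each replicate, covering 0.58% and 0.93% of its 347038 bp.

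Along chromosome 4 the regions were unevenly placed, with high coverage at both ends of the assembled sequence. Cut into 10 equal windows, the chromosome was covered to 37.4% ± 0.96 in window 1 and 34.1% ± 3.67 in window 10, but to 12.0% ± 0.6 in window 4 and 8.94% ± 1.48 in window 9 (SD, n = 2). Window 7 reached 33.0% ± 4.92. The replicates differed most in window 2, at 38.1% in replicate 1 and 24.0% in replicate 2. Windows 4 and 9 were the lowest of the 10 in both replicates. Before the first region, at 62896, the first 62776 bp were empty in all 3 lists. The last region (1323742 to 1352452) ran 595 bp past the stated end of the sequence in the series list, and this overhang was left out of the coverage.

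**Figure D2:**
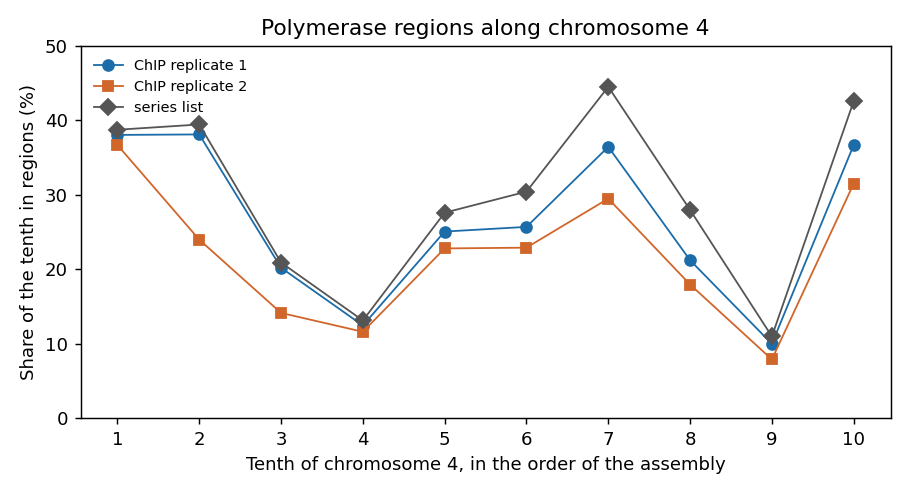
Share of each of 10 equal windows of chromosome 4 inside polymerase regions (percent), in assembly order, in ChIP replicate 1, ChIP replicate 2 and the series list. Windows 4 and 9 are the lowest in each list, and windows 1, 7 and 10 stand well above them in all 3.

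Regions on chromosome 4 formed runs. Runs were not counted on the main arms, where close spacing was common too, with 50.0% of gaps under 5 kb in the series list. Taking regions less than 5 kb apart as 1 run, a distance chosen after the values were seen, 40 of the 84 regions fell into 7 runs of 3 or more. The longest run held 13 regions over 77605 bp (874702 to 952306) and 84.7% of it was covered, with 5 of the regions found in both replicates, 4 in 1 replicate and 4 in neither. Another run, of 4 regions, spanned 55557 bp (62896 to 118452), was covered to 92.2%, and had all 4 in both replicates. Between the runs, the longest stretches without a region in any list were 80711 bp (382001 to 462711), 65999 bp (739995 to 805993) and 65471 bp (809231 to 874701). The stretches of 65999 bp and 65471 bp are separated by a single region (805994 to 809212, score 1.21). No gap on chromosome 4 reached 100 kb in any list. In the series list 45 of 172 gaps did so on the scaffolds, but only 212 of 5249 on the main arms.

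Spacing set chromosome 4 apart from U more than from the Het sequences. The median distance to the next region on chromosome 4 was 4951 bp in replicate 1 and 7372 bp in replicate 2, against 31491 bp and 37086 bp on the Het sequences and 114049 bp and 122574 bp on U. The main arms had 5548 bp and 5900 bp, so the replicates placed chromosome 4 on opposite sides of these arms. Of the gaps in the series list, 55.4% on chromosome 4 were under 5 kb, against 39.4% on the Het sequences and 15.4% on U. The share was 50.0% on the main arms and 55.8% on X alone. In replicates 1 and 2 it was 50.6% and 43.7% on chromosome 4, and 47.8% and 46.0% on the main arms. At the other end, 4.82% of the gaps on chromosome 4 were 50 kb or longer in the series list. This compares with 34.0% on the Het sequences, 59.0% on U and 10.4% on the main arms.

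**Figure D3:**
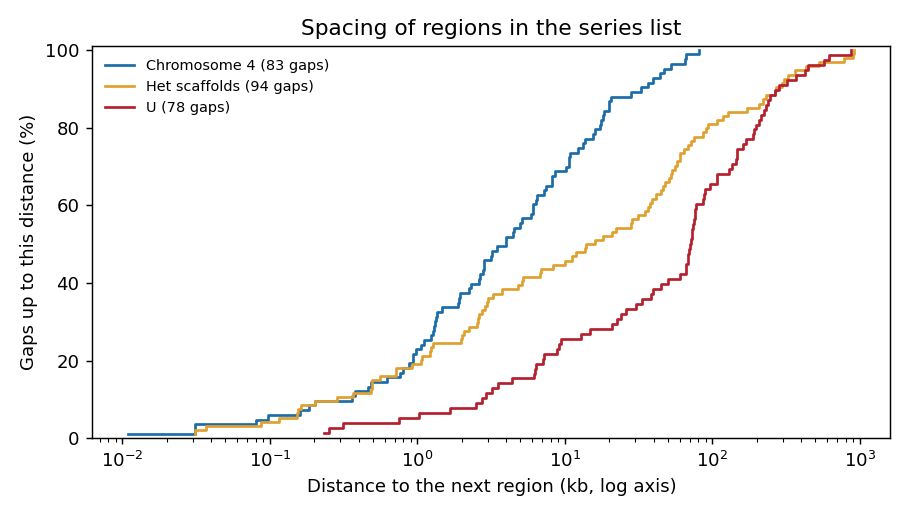
Cumulative share of gaps (percent) up to each distance between neighbouring regions of the series list (kb, log axis), for chromosome 4 (83 gaps), the Het sequences (94) and U (78). The median gap is 3997 bp on chromosome 4, 14930 bp on the Het sequences and 70940 bp on U.

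The Het sequences joined short dense runs to long empty stretches. On 2RHet, 10 regions lay within 32195 bp (2880458 to 2912652), of which 1 was found in both replicates, 3 in 1 replicate and 6 in neither. An earlier 2RHet run of 3 regions (80660 to 107270) was found whole in both replicates. Long empty stretches in all lists were 915237 bp on 2RHet (1423799 to 2339035), 899749 bp on 3LHet (667713 to 1567461) and 777575 bp on 3RHet (67747 to 845321), between 27.8% and 35.2% of each sequence. On 2RHet, 3LHet and 3RHet alike, the series regions at both ends of these stretches were found in neither replicate. Of 10 equal windows of 3RHet, windows 1 to 4 had no region in either replicate. Windows 5 and 6 had none in replicate 1. The 3RHet stretch thus lay before the first region of each replicate list, and is not a gap between regions there. The longest gap in each replicate list was 1.65e+06 bp on 2RHet and 1.58e+06 bp on 3LHet. On U the longest was 874936 bp (1275659 to 2150594), and U had 1 run of 3 regions among its 79. Of 10 equal windows of U, the last held 17 regions in the series list and 8 in each replicate, and the first held 1 in the series list and 1 and 2 in replicates 1 and 2. By coverage window 3 was the highest in every list, with 5.35% and 2.27% in replicates 1 and 2 and 5.81% in the series list. The order of these windows comes from the assembly.

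Each Het sequence had its own mix of number, width, spacing and score. With 43 regions in the series list but 20 and 21 in replicates 1 and 2, 2RHet had the largest surplus over the replicates. Its regions were narrow in the series list, 1705 bp at the median, and 2371 and 2294 bp in the replicates, with median scores of 0.63 in the series list and 0.98 and 0.92 in the replicates. Its median gap was 6691 bp in the series list, against 43818 and 35929 bp in the replicates. 3LHet held 29 regions in the series list and 19 and 17 in the replicates, with median widths of 2723 and 2685 bp, scores of 0.81 and 1.04 and gaps of 17084 and 19651 bp in replicates 1 and 2. 3RHet held 16, and 9 in each replicate, with median widths of 2239 and 2087 bp, scores of 0.92 and 1.01 and gaps of 49018 and 95885 bp in the replicates. 2LHet held 6 regions, and 6 and 5 in the replicates, with 2880 and 2307 bp and scores of 1.02 and 1.12. XHet held 4, and 3 and 4 in the replicates, with 2683 and 2426 bp and scores of 1.31 and 0.94. YHet held 2 regions in the series list, 231563 bp apart.

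Widths on chromosome 4 were close to those of the main arms. It had a surplus of wide regions over these arms together, but X alone came near it in the series list and replicate 2. The median width was 2880 bp in replicate 1 and 2767 bp in replicate 2 on chromosome 4, against 2380 bp and 2188 bp on the Het and U scaffolds, and 2611 bp and 2571 bp on the main arms. In the series list 9 of the 84 regions of chromosome 4, or 10.7%, were 10 kb or wider, and they held 41.9% of its covered sequence. On the scaffolds 3 of 179 regions (1.68%) were that wide, with 11.7% of the covered sequence, and on the main arms 6.19% of the regions, with 26.3%. On X alone 9.55% of the regions were that wide, with 34.5% of the covered sequence. Replicate 1 likewise had 9 such regions on chromosome 4 (11.25%) and replicate 2 had 5 (6.94%). The shares in replicates 1 and 2 were 4.54% and 4.26% on the main arms, and 5.98% and 6.50% on X alone. In replicate 2 such regions held 22.0% of the covered sequence on chromosome 4 and 25.6% on X, and in replicate 1 36.5% and 23.1%. Regions of 10 kb or wider covered 9.62% of chromosome 4 in replicate 1 and 4.81% in replicate 2. Narrower ones covered 16.8% and 17.1%. These are net totals and do not place the difference in the wide regions alone. The 17397 bp region at 562940 to 580336 was 1 region in replicate 1 but 4 narrower ones in replicate 2. In addition, 14 regions of the series list, from 1087 to 4111 bp wide, overlapped replicate 1 alone.

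Among the widest regions, that of 30789 bp on chromosome 4 (902008 to 932796) was made of 3 regions in replicate 1 and 5 in replicate 2, with a width-weighted mean score of 0.78 and 0.81. The 28711 bp region at the end of the chromosome was 3 regions in replicate 1 and 4 in replicate 2, with 1.26 and 1.18. A region of 19177 bp (78884 to 98060) was single in both, with 1.64 and 1.46. On U the widest spanned 29875 bp (2153146 to 2183020) and was 1 region of 32633 bp in replicate 1, scoring 1.41, but 7 regions in replicate 2, scoring 0.84. The next on U, 11499 bp (3468298 to 3479796), scored 1.41 in replicate 1 and had no counterpart in replicate 2. Of the Het sequences, 2RHet held the widest region, 16881 bp (86498 to 103378), 1 region in replicate 1 and 2 in replicate 2, with 0.81 and 0.83. In 3LHet the widest was 8783 bp (593530 to 602312), split in 2 in each replicate, with 1.04 and 0.92, and in 3RHet it was 5331 bp (1820342 to 1825672), with 0.97 and 0.88.

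Scores on chromosome 4 filled a narrow range, without values of 2 or more. They ran from 0.34 to 1.75 in replicate 1 and from 0.20 to 1.97 in replicate 2, with medians of 0.94 and 0.94. On U the range was 0.29 to 3.60 and 0.34 to 3.87, with medians of 1.35 and 1.21, and on the Het sequences 0.34 to 2.62 and 0.31 to 2.47, with medians of 0.97 and 0.97. The main arms had medians of 1.13 and 1.14. Chromosome 4 was thus lower than U by 0.41 and 0.27, and differed from the Het sequences by -0.04 and -0.03. At the 95th percentile the scores of chromosome 4 were lower than those of the main arms by 0.82 and 0.97 and those of the Het sequences by 0.68 and 0.68, whereas U was higher than the main arms by 0.34 and 0.25. Chromosome 4 was lower than the Het sequences there by 0.15 and 0.29. No region of chromosome 4 in the series list scored 2 or more, against 17 of 79 on U and 9 of 100 on the Het sequences. Over the whole series 11.7% of regions reached that score, which was picked as a round value after the scores were seen.

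The highest scores of chromosome 4 were close to each other. In the series list the leading region (690092 to 693274, 3183 bp) scored 1.57, with 1.57 in replicate 1 and 1.89 in replicate 2. Next came 1.55 at 327672 to 337112 (9441 bp), with 1.59 and 1.55 in replicates 1 and 2, and by the 19177 bp region named above. The region at 714194 to 718114 had 1.60 and 1.64 in the replicates, and that at 1290264 to 1293770 had 1.31 and 1.97. A 13563 bp region (1042866 to 1056428) had 1.43 and 1.47, the 12635 bp region at 65484 to 78118 had 1.46 and 1.43, and the 7855 bp region at 198316 to 206170 had 1.51 and 1.40. Their replicate means ran from 1.45 to 1.73, and the SD of the leading region, 0.23, is larger than its distance from the next in the series list. The 3 lowest of chromosome 4 scored 0.16 (1134550 to 1136070), 0.20 (1253888 to 1255070) and 0.21 (969976 to 971218). The lowest overlapped a region of replicate 1 and the others no region of either replicate.

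On U, the top of the range was set by compact regions. A 3067 bp region (9709792 to 9712858) had 3.60 in replicate 1 and 3.87 in replicate 2. Those at 8054984 to 8057492 (2509 bp), with 2.63 and 3.22, at 9177514 to 9179912 (2399 bp), with 2.78 and 2.99, and at 7541876 to 7546156 (4281 bp), with 2.72 and 2.67, followed among those found in both replicates. The other 4 of the 8 highest on U, from 2.64 to 3.15, had no counterpart in either replicate. On the Het sequences the 2 highest of 2RHet, 3LHet and 3RHet were all of this unmatched kind, from 2.15 to 2.94. The 2 highest of 2LHet, with 1.47 and 1.33 (30500 to 37392) and with 1.36 and 1.29 (166712 to 170080), and of XHet, with 1.31 and 1.14 (59938 to 64322) and with 1.36 and 1.57 (74210 to 77640), were found in both replicates. On YHet the region found in both (304426 to 307798) had 1.06 and 1.18, and the other (71862 to 72862) was unmatched, with 2.53 in the series list.

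Wider regions scored higher on chromosome 4, and less so on the scaffolds. Across the regions of the series list Spearman's rho was 0.71 on chromosome 4 (84 regions), 0.09 on the Het sequences (100) and 0.06 on U (79), against 0.64 on the main arms. In the replicate lists it was 0.58 and 0.55 on chromosome 4, 0.46 and 0.37 on the Het sequences, 0.32 and 0.31 on U, and 0.65 and 0.61 on the main arms. Regions of a list share a library, and these values are descriptions. Under 2 kb, the median score in the series list was 0.29 on chromosome 4, 0.47 on the Het sequences and 0.96 on U, compared with 0.32 on the main arms. At 10 kb or wider, all 9 regions of chromosome 4 were found in both replicates, and they scored from 0.73 to 1.54. The same held for all 325 regions of that width on the main arms. There, no region missing from a replicate was wider than 6873 bp.

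**Figure D4:**
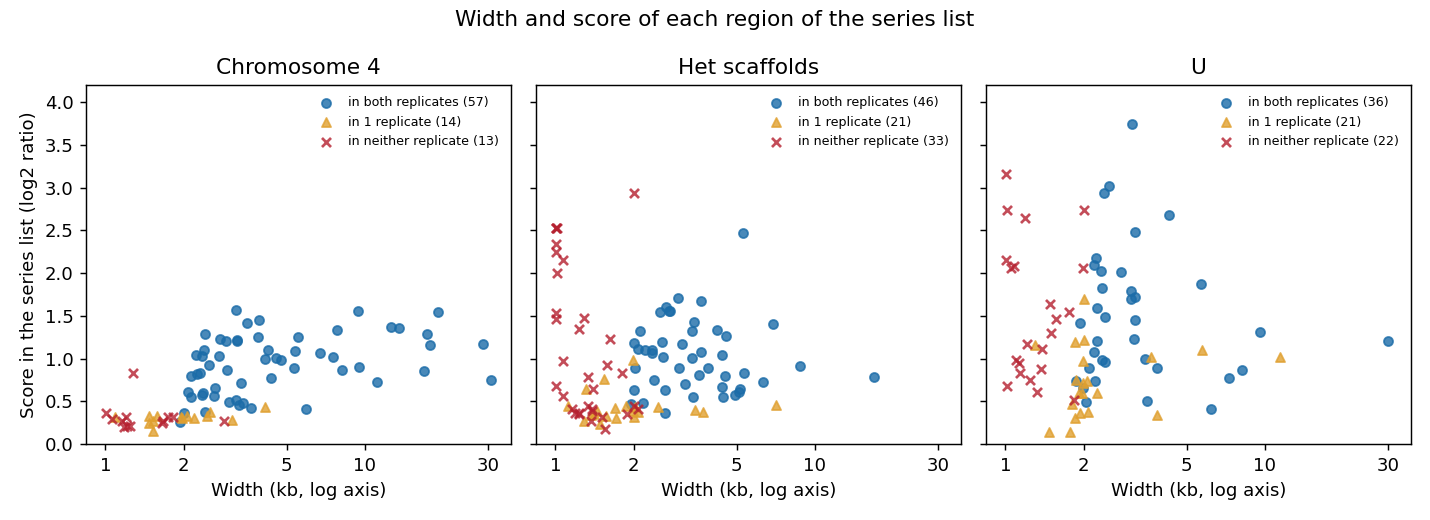
Width (kb, log axis) against score (log2 ratio) of each region of the series list, for chromosome 4, the Het sequences and U, marked by whether the region overlaps a region of both replicates, of 1 or of neither. Unmatched regions of chromosome 4 score 0.83 or less, while on the Het sequences and U they reach 2.94 and 3.15.

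The share of regions found again in the replicates was lower on the scaffolds. With an overlap of at least 1 bp, 57 of the 84 regions of chromosome 4 (67.9%), 46 of 100 on the Het sequences and 36 of 79 on U (45.6%) overlapped a region of both replicates, where the figure for all regions of the series was 78.2%. By sequence it was 5 of 6 on 2LHet, 15 of 43 on 2RHet, 15 of 29 on 3LHet, 7 of 16 on 3RHet, 3 of 4 on XHet and 1 of 2 on YHet. A further 14 regions of chromosome 4 (16.7%) and 24 of the Het and U scaffolds (13.4%) overlapped replicate 1 alone, against 6.38% over the series. Replicate 2 alone was overlapped by 0 regions of chromosome 4 and 18 of the scaffolds (10.1%), against 4.77% over the series. No region of either replicate was met by 13 regions of chromosome 4 (15.5%), 33 of the Het sequences and 22 of U (27.8%), against 10.6% over the series. Seen from the replicates, all 80 and all 72 regions of chromosome 4 were in the series list, as were all but 1 of the 106 scaffold regions of replicate 1 and all but 1 of the 110 of replicate 2. Those exceptions were both on U, a 1576 bp region with 0.29 in replicate 1 (7457317 to 7458892) and a 1427 bp region with 0.77 in replicate 2 (348400 to 349826).

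Set against each other, the bases covered in both replicates made up a fraction of 0.782 of those covered in either on chromosome 4 (the Jaccard index), against 0.681 on the Het sequences, 0.572 on U and 0.842 on the main arms. Among the Het sequences it ran from 0.620 on YHet to 0.762 on 2LHet. Of the 80 regions that replicate 1 had on chromosome 4, 65 (81.3%) met one of replicate 2, where the share over the whole list was 91.8%, and all 72 of replicate 2 met one of replicate 1, where it was 94.0%. On the Het sequences the shares were 81.0% in replicate 1 and 84.2% in replicate 2, and on U 36 of 48 and 43 of 53. Apart from the regions of chromosome 4 in replicate 2, these shares were below those of the whole lists.

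Unmatched regions were weak on chromosome 4 and often strong on the scaffolds. On chromosome 4 the 13 were 1243 bp wide and scored 0.28 at the median, and the highest had 0.83. The 33 on the Het sequences had medians of 1237 bp and 0.78, and the 22 on U had 1228 bp and 1.38, so that widths were alike and scores were not. On the main arms such regions were 1250 bp wide and scored 0.37 at the median. A score of 2 or more without a counterpart in either replicate occurred in 0.526% of the regions of the series, 29 in number. Of these, 16 lay on the Het and U scaffolds, which held 179 of the 5517 regions, 13 on the large autosome arms, 0 on X and 0 on chromosome 4. On U 8 of the 17 regions that scored 2 or more were of this kind, on the Het sequences 8 of 9, and on the main arms 13 of 618.

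Most of these strong unmatched regions were narrow, and several shared a score. Of the 16 on the scaffolds, 13 were narrower than 1301 bp, the narrowest region of either replicate list, and the others were 1995, 2001 and 2003 bp wide. This was not particular to the scaffolds, since 11 of the 13 on the large autosome arms were as narrow, and 24 of the 29 over the series. Among all regions, 32 of 179 on the scaffolds (17.9%) and 9 of 84 on chromosome 4 (10.7%) were narrower than 1301 bp, against 7.18% over the series. A region of the series list was never narrower than 1001 bp. The score 2.53 occurred, to 7 decimals, on 3LHet (1882700 to 1883700), on 3RHet (2452936 to 2453946) and on YHet (71862 to 72862). On U 2 regions had 2.74 (1096542 to 1097552 and 9881724 to 9883724), and the strongest, 3.15 at 9866020 to 9867020, shared its score with 6 regions of the large autosome arms. The score 2.74 is 0.75 times the score 3.15 on the linear scale, and 2.15, which occurred on 3RHet (1988440 to 1989512) and on U, is 0.5 times it. The 16 regions held 11 distinct scores, and 12 of them had a score that another region of the series list also had, against 9 of the 13 strong unmatched regions of the large autosome arms. Over all regions, such a score was found in 2 of 84 on chromosome 4 and 34 of 179 on the scaffolds, against 4.55% over the series.

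Where both replicates held a region, their scores were closer on chromosome 4 than on U. The median absolute difference between the replicates was 0.13 over the 57 regions of chromosome 4, 0.13 over the 46 of the Het sequences and 0.22 over the 36 of U, against 0.12 on the main arms. Differences of 0.5 or more were found for 2 regions of chromosome 4 (3.51%), 3 of the Het sequences (6.52%) and 8 of U (22.2%), and for 3.54% of those of the main arms. Spearman's rho between the replicates across regions was 0.89 on chromosome 4, 0.79 on the Het sequences and 0.84 on U, all below the 0.94 of the main arms. On chromosome 4 replicate 1 scored higher in 37 regions and replicate 2 in 20. The numbers were 26 and 20 on the Het sequences, 17 and 19 on U, and 2094 and 2083 on the main arms.

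The largest single differences were on U, one with replicate 1 higher and one with replicate 2 higher. The 1931 bp region at 4458516 to 4460446 had 3.29 in replicate 1 and 1.54 in replicate 2, and 1.42 in the series list, lower than in either. The 2197 bp region at 9514856 to 9517052 had 1.65 and 2.57. In 3RHet a region of 2089 bp (2327304 to 2329392) had 0.78 and 1.50. Chromosome 4 had its largest difference at 1290264 to 1293770, named above for its score, followed by 630478 to 632860, with 0.89 and 0.35, and 148440 to 151090, with 0.94 and 0.46.

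**Figure D5:**
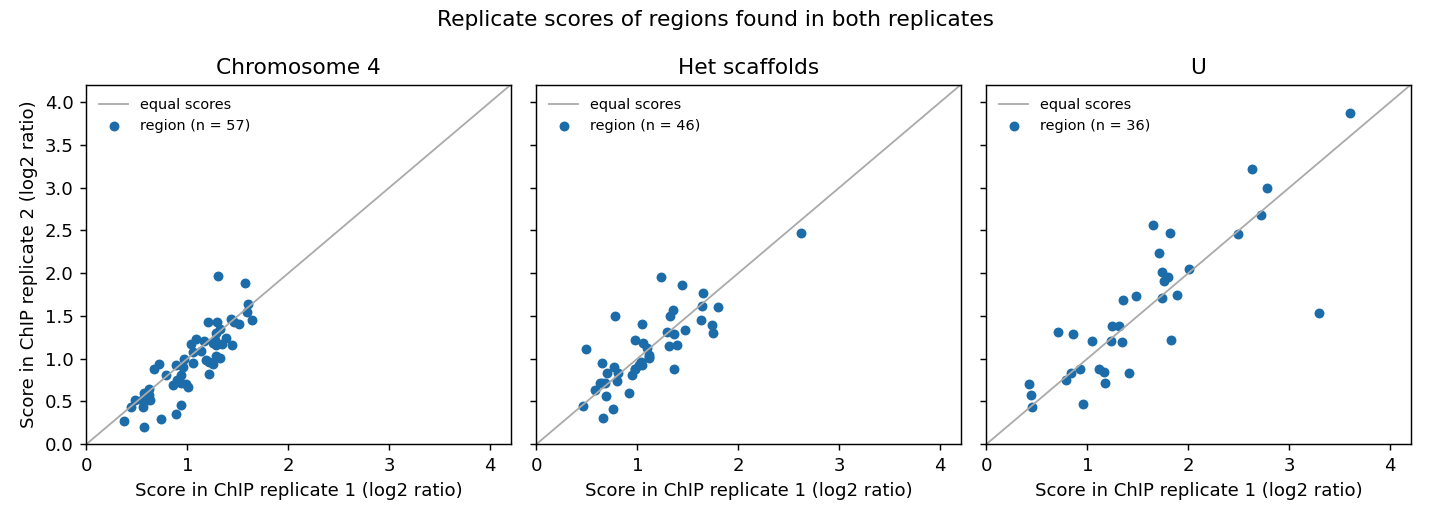
Score in ChIP replicate 1 (x axis) against ChIP replicate 2 (y axis), both log2 ratios, for regions found in both on chromosome 4 (57), the Het sequences (46) and U (36), with the line of equal scores. Chromosome 4 stays under 2, and U reaches 3.60 and 3.87 and holds the point farthest from the line, at 3.29 and 1.54.

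For regions found in both replicates on these sequences, scores of the series list were lower than or between those of the replicates. The same was true of nearly all such regions on the main arms. On chromosome 4 the series score was below both replicate scores in 27 of 57 regions (47.4%) and between them in 30. On the Het and U scaffolds it was below both in 25 of 82 (30.5%) and between them in 57. The share below both was 40.6% on the main arms and 46.5% on X alone, so chromosome 4 was near X. The series score was above both in 0 of the 57 and 0 of the 82, against 52 of 4177 on the main arms. The median distance from the replicate mean was -0.05 on chromosome 4, -0.03 on the scaffolds and -0.04 on the main arms. Over all regions of a list, the median score of chromosome 4 was 0.72 in the series list against 0.94 and 0.94 in the replicates. It was lower in the series list elsewhere too, at 0.92 against 1.08 and 1.04 on the scaffolds. The main arms had 0.97 against 1.13 and 1.14, and X alone 1.01 against 1.23 and 1.25. The 27 regions of chromosome 4 not found in both scored at most 0.83 in the series list, and their part in its median was not tested.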

How the data were processed

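The labels list Bowtie 0.12.7 among the tools of the submitters' processing notes, and positions refer to FlyBase release 5, per the file headers. How regions were called, at which thresholds and with what role of the inputs, and how the series list was made, is not given in the sources used here. The score deposited with each region was taken as log2, because differences between repeated scores matched base 2 logarithms of simple ratios (whole numbers to 40, tolerance 1e-07) for 546 of 13366 pairs from replicate 1, 378 of 4851 from replicate 2 and 433 of 5356 from the series list. Natural logarithms matched 0, 0 and 1. The numerator, the denominator and the zero point of the ratio remain unknown here.

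The members and the rule for named regions were chosen with earlier results of these data known. Named were the 8 highest, 3 widest and 3 lowest scoring regions of chromosome 4, the 8 highest and 3 widest of U, the 2 highest and the widest of each Het sequence, both of YHet, the longest empty stretches, and the 3 largest replicate differences on chromosome 4 and on the scaffolds. Runs, the score of 2, the width of 1301 bp and repeated scores were singled out after their values were seen. A series region counted as found in a replicate at 1 bp of overlap, and several replicate regions were averaged by width. Python 3.11.15 with numpy 2.4.6, pandas 2.3.3, scipy 1.17.1 and matplotlib 3.10.9 was used, and the overlap and coverage functions were tested on simulated lists. Gene lists were not used, since the gene table at hand refers to release 6. Alternatives were each replicate list alone, scores above the list median, merging within 500 bp, a least width of 1500 bp, stricter overlaps and other summaries of replicate scores.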

Additional observations from a re-analysis of the deposited data

How the results depend on the processing

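Of 68 alternatives to the 14 summary values, 25 stayed within the replicate spread and 43 moved beyond it. For regions per Mb the limit was instead 1.5 times the reported value. For the share in both replicates it was the SD of the share in replicate 1 and the share in replicate 2, 11.8 on chromosome 4 and 2.37 on the scaffolds. That SD is not a spread of the share in both, and the same shares are among the alternatives. For the median score of chromosome 4 the SD was 0.00047, so that almost any change counted as moved. For differences between replicate scores the limit was set by the value itself, as given below. In all of the alternatives chromosome 4 stayed denser, more covered, wider at the median and more closely spaced than the Het and U scaffolds, with a lower median score. With 1 replicate list in place of the series list, chromosome 4 ranged from 21.9% to 26.4% covered, with a median width of 2767 to 2879.5 bp, a median score of 0.94 in each and a median gap of 4951 to 7372 bp. The scaffolds then had 5.48 to 5.69 regions per Mb, 1.54% to 1.82% covered, a width of 2188 to 2380 bp, a score of 1.04 to 1.08 and a gap of 65778 to 70145 bp. Shares found in 1 replicate ran from 67.9% to 84.5% on chromosome 4 and from 55.9% to 59.2% on the scaffolds. With only scores above the list median, chromosome 4 had 21.5 regions per Mb, 15.4% covered, a width of 4241 bp, a score of 1.21, a gap of 23103 bp and 100% in both replicates, and the scaffolds 4.55 per Mb, 1.31%, 2247 bp, 1.47, 80497 bp and 56.8%. Merging within 500 bp gave a width of 3088 bp and a gap of 5931 bp on chromosome 4, and a score of 0.99 and a gap of 50815 bp on the scaffolds. A least width of 1500 bp gave a width of 3083 bp and a score of 0.82 on chromosome 4, and 2.27% covered, a width of 2396 bp, a gap of 57549 bp and 63.1% in both on the scaffolds. Asking for a reciprocal overlap of 50% left 39.1% of scaffold regions in both, and asking that 50% of the region be covered left 41.9%. The causes were not tested. For differences between replicate scores the limit was the SD implied by the median difference itself. It was 0.089 for a value of 0.126 on chromosome 4 and 0.107 for 0.151 on the scaffolds. All alternatives for this measure stayed within that limit, but it is so wide that nothing is concluded from this. No paired analysis was possible because the 2 ChIP replicates form 1 group and the inputs were not analysed here. Unknown depth, and the unknown part of each sequence to which reads could be aligned, limit what an absent region can show.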
